A study of Mus musculus with 4 samples.

Results

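The genes described here are 38 type I interferon-stimulated genes of the mouse, chosen by name. They comprise 3 transcription factors of the interferon response (Irf7, Irf9 and Stat2), 8 sensors of RNA or DNA (Ifih1, Ddx58, Dhx58, Zbp1, Ifi204, Ifi209, Ifi211 and Ifi213), 3 genes of the ubiquitin-like ISG15 system (Isg15, Usp18 and Herc6), 21 antiviral effectors (Ifit1, Ifit2, Ifit3, Ifit3b, Mx1, Mx2, Oasl1, Oasl2, Oas1a, Oas2, Oas3, Rsad2, Cmpk2, Bst2, Isg20, Slfn5, Slfn8, Trim30a, Parp14, Rtp4 and Xaf1) and 3 others (Ifi47, Ifi35 and Ifi27l2a). Of these, 36 had a row among the 32285 genes of the count tables, and Mx1 and Mx2 were not analysed here. Their levels were followed through 5 lineages of tumor-infiltrating immune cells, gated by 1 or 2 marker genes that are not among the 38.

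The cells came from YUMMER1.7 melanomas, a mouse line grown under the skin of male wild-type C57BL/6J mice of 7 to 8 weeks. Mice received an isotype control antibody, anti–PD-1 (10 mg/kg), anti-MIF (20 mg/kg) or both antibodies (anti–PD-1/anti-MIF), in a long cohort (4 doses over 2 weeks, tumors taken at day 21) and a short cohort (2 doses over 1 week, day 14). Sorted cells were mixed back at 20% CD45- and 80% CD45+ before 5′ single-cell RNA-Seq, so the mix of tumor and immune cells was set by the sort. Each cohort is 1 pooled library in which a hashtag antibody marks the arm, so an arm is 1 sample without a replicate, and cohort, library, day and number of doses cannot be told apart.

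Hashtags assigned 204, 319, 879 and 269 cells of the long cohort to the isotype, anti–PD-1, anti-MIF and combination (anti–PD-1/anti-MIF) arms, and 745, 1370, 556 and 448 cells of the short cohort to the same arms. The median cell held 8242 UMIs (unique molecular identifiers, each counting 1 captured transcript) in the long cohort and 5835 in the short cohort. Of the barcodes, 20 occurred in both libraries, and 14 of these were kept in both. The gates were at least 1 UMI of Cd3e for T cells (568 cells), of Ncr1 for NK cells (140 cells) and of Siglech for plasmacytoid dendritic cells (pDCs, 92 cells), at least 1 UMI of both Ccr7 and Fscn1 for mature dendritic cells (mature DCs, 149 cells), and at least 10 Lyz2 UMIs per 10000 for myeloid cells (2511 cells). Together the gates held 68.8% of the kept cells of the long cohort and 74.1% of those of the short cohort.

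Defining markers were found in the gates named for them, and some of those checked are given here. Only those of pDCs and NK cells are set against another gate. Cox6a2, a pDC marker, had 1334 UMIs in the pDC gate and 0 in the NK gate, and Gzma, a cytotoxic granule gene, had 5278 UMIs in the NK gate and 0 in the pDC gate. The T cell gate held 4189 UMIs of Cd3g, the mature DC gate 1199 of the chemokine gene Ccl22 and 1106 of Il12b, and the myeloid gate 20709 of Cd14 and 1752 of the macrophage gene Adgre1. Cells that passed more than 1 gate were left out, except that Lyz2 did not remove a mature DC. UMIs summed per arm ranged from 601328 to 5291105 in myeloid cells, 164276 to 793203 in T cells, 44852 to 658779 in mature DCs, 40163 to 488427 in NK cells and 29262 to 150838 in pDCs, so pDC and NK levels rest on the fewest molecules.

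Type I interferons are secreted when a cell senses nucleic acid in the wrong place. They bind the receptor formed by Ifnar1 and Ifnar2, and the kinases Jak1 and Tyk2 then activate transcription factors, STAT2 and IRF9 among them. These bind the interferon-stimulated response element in the promoters of its target genes, whose products sense viral nucleic acid, degrade or hold back viral RNA, and amplify or end the response. In tumors the same genes are used as a readout of interferon exposure, many of them also respond to interferon gamma, and pDCs are known as a main source of type I interferon.

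The response element is shown first because it is the feature by which such genes are recognized. RefSeq promoter windows (GRCm38.p6, 250 bases before to 50 after the start of a gene) were at hand for 28 of the 36 members. The letters GAAA, any 2 bases and GAAA again, searched on both strands with overlapping matches allowed, occurred in the windows of 16 of these 28 members (57.1%), against 1079 of all 27025 genes with a window (3.99%). Among 34 other genes of interferon signaling with a window, from classes named further on, 12 windows held it (35.3%). Matches are letters in a window and not binding sites, and Irf7, Ifi209, Oasl1, Oasl2 and Cmpk2 were among the 12 members whose windows lacked these letters. The stretches printed next belong to members that carry the results below, with the match in capitals and each read 5′ to 3′ on the strand of the match:
Isg15: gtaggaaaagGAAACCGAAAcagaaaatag
Ifit1: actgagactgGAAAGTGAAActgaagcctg
Ifit1, nearer the start: tcagcagtgaGAAACTGAAActgagactgg
Ifit3 and Ifit3b: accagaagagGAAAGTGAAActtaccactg
Rsad2: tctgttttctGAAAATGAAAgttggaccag
Bst2: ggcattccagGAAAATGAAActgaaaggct
Stat2: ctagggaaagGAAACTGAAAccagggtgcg
Ifi211: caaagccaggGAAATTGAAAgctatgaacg

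The Isg15 stretch lies at chr4:156200871-156200900 on the minus strand, 63 bases before the start of the gene, and is the middle one of 3 overlapping matches there. The Ifit1 stretches lie at chr19:34640775-34640804 and chr19:34640794-34640823, 95 and 76 bases before its start. The same sequence was found before Ifit3 (chr19:34583363-34583392) and before its near copy Ifit3b (chr19:34607759-34607788). Reads of near copies may be split between them, which was not tested here, and the separate values of this pair are uncertain. Rsad2 had its match at chr12:26456553-26456582 on the plus strand, and Bst2 at chr8:71537583-71537612, Stat2 at chr10:128270266-128270295 and Ifi211 at chr1:173913064-173913093 had theirs on the minus strand, as had Ifit1, Ifit3 and Ifit3b. The matches of Bst2, Stat2, Rsad2 and Ifi211 ended 121, 213, 111 and 28 bases before the start.

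Summed over the 36 members, the level was highest in myeloid cells by the median over arms and in 6 of the 8 arms, and lowest in NK cells by the median. Levels are given as CPM, the UMIs of the members per 1000000 UMIs of all genes in the gated cells of an arm. Myeloid cells of the long cohort had 13523 CPM after isotype, 14732 after anti–PD-1, 7569 after anti-MIF and 8744 after the combination, and those of the short cohort 7355, 12533, 9529 and 11836 in the same order. The arms thus spread over a range in myeloid cells, and the isotype arm was near the top in the long cohort and at the bottom in the short cohort.

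pDCs had 7615, 7496, 8022 and 5990 CPM in the 4 arms of the long cohort and 8554, 8031, 7689 and 6171 in those of the short cohort. T cells had 4011, 4696, 4673 and 4956 CPM in the 4 long arms and 6185, 4767, 4659 and 4889 in the 4 short arms. These lineages kept a narrow range in both cohorts, and 7 of the 8 T cell arms lay below every pDC arm. The single member Bst2 gave 2843 to 3991 CPM of each pDC sum, and without it this order of arms does not hold.

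Mature DCs had 4761, 6635, 2766 and 3923 CPM in the 4 long arms and 3094, 5819, 6822 and 4598 in the 4 short arms, which overlapped the range of the T cells. NK cells had 1211, 3792, 4125 and 7006 CPM in the 4 long arms and 963, 1806, 1657 and 6274 in the 4 short arms. The highest NK arm of either cohort was anti–PD-1/anti-MIF, with 9 and 8 cells, and in each 1 cell held most of the member UMIs. Without that cell (246 of 422 UMIs in the long arm and 150 of 252 in the short arm) the sums were 3744 and 3098 CPM. Each was still the highest of its cohort when every labelled NK arm was taken without its top cell, the others having 680 to 2951 CPM in the long and 785 to 1686 in the short cohort. Without the top 3 cells of each arm the long combination arm had 1871 CPM, below the 2526 of the long anti-MIF arm, and the short one 1999. The short combination arm also held 199 CPM of 6 myeloid markers, against 0 to 54.8 in the other NK arms with a labelled treatment, and the chemokine genes Cxcl9 and Cxcl10 at 349 and 1220 CPM, and their part in the level was not tested. By the median over the 8 arms the order was myeloid (10683 CPM), pDC (7652), T (4731), mature DC (4679) and NK (2799), and each neighbouring pair in this order had overlapping arms. The place of pDCs above T cells in this order rests on Bst2, whose levels are given below.

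**Figure D1:**
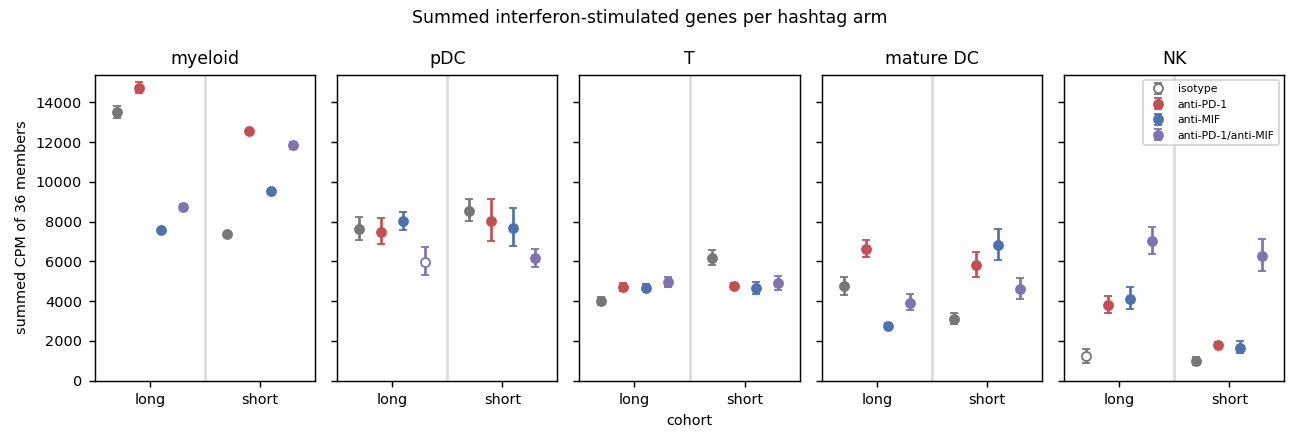
Summed CPM of the 36 members (y axis) in each arm of both cohorts (x axis), 1 panel per gated lineage, with isotype in grey, anti–PD-1 in red, anti-MIF in blue and the combination in purple. Bars are exact Poisson 95% intervals, which cover counting error only, and open symbols are arms with fewer than 5 cells. Myeloid arms lie between 7355 and 14732 CPM and T cell arms between 4011 and 6185.

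Single members, Ifi27l2a of the ISG12 family and, in pDCs, Bst2, made up much of these sums. In pDC arms with at least 5 cells Bst2 had 3383 to 3991 CPM, of sums of 6171 to 8554 CPM. In T cells Bst2 had 240 to 371 CPM. On average over the arms Ifi27l2a gave 42.6% of the member UMIs in T cells, 25.8% in myeloid cells, 22.1% in mature DCs and 18.3% in pDCs, but 5.25% in NK cells. Its level was 1502 to 2721 CPM in T cells and 0 to 797 CPM in NK cells. Without Ifi27l2a the median sums were 7659 CPM in myeloid cells, 6238 in pDCs, 3592 in mature DCs, 2765 in T cells and 2742 in NK cells. The pDC value still includes Bst2, at a median of 3947 CPM in arms with at least 5 cells.

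Of the 36 members, 29 had their highest median level in myeloid cells. The exceptions were Stat2, Usp18, Bst2 and Trim30a, highest in pDCs, Isg20, highest in T cells, Ddx58, highest in NK cells, and Herc6, highest in mature DCs. Of these, only Bst2 and Stat2 were called higher than in myeloid cells in the tests below. Against myeloid cells the medians were 86.0 and 84.0 CPM for Ddx58, 113 and 110 for Herc6, and 106 and 92.0 for Usp18. By the mean over arms Usp18 was lower in pDCs (87.3 CPM) than in myeloid cells (109). Among the 10 members with the highest mean level over the lineages, Isg15, whose product is a ubiquitin-like modifier, had a median of 1310 CPM in myeloid cells (741 to 1880) and 1183 in mature DCs (568 to 1984), but 270 in T cells (128 to 384) and 137 in pDCs (22.8 to 430). Zbp1, a sensor of left-handed nucleic acid, had a median of 344 CPM in myeloid cells (183 to 462), 199 in NK cells (32.5 to 319), 168 in T cells (115 to 217), 102 in mature DCs (60.8 to 237) and 46.4 in pDCs (0 to 84.1). The arms of Isg15 in mature DCs covered those in myeloid cells, whereas no pDC arm reached the lowest myeloid arm of either gene.

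Ifi209, a member of the PYHIN family of DNA sensors, had medians of 323, 176, 159, 134 and 114 CPM in myeloid cells, mature DCs, NK cells, T cells and pDCs. Ifi47, an interferon-induced GTPase, had medians of 215 CPM in myeloid cells, 164 in T cells, 160 in pDCs, 123 in NK cells and 36.5 in mature DCs. Slfn5, a Schlafen family gene, had medians of 327 CPM in myeloid cells and 148 in pDCs, against 80.8 in mature DCs, 25.6 in T cells and 17.7 in NK cells. Trim30a, a ubiquitin ligase gene, kept to a narrower span, with medians of 299 CPM in pDCs, 232 in myeloid cells, 229 in NK cells, 170 in T cells and 125 in mature DCs. Ifi204, Ifi209, Ifi211 and Ifi213, the Oas genes, the Schlafen genes and Trim30a have close relatives in the genome, and reads shared with these can move their values.

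**Figure D2:**
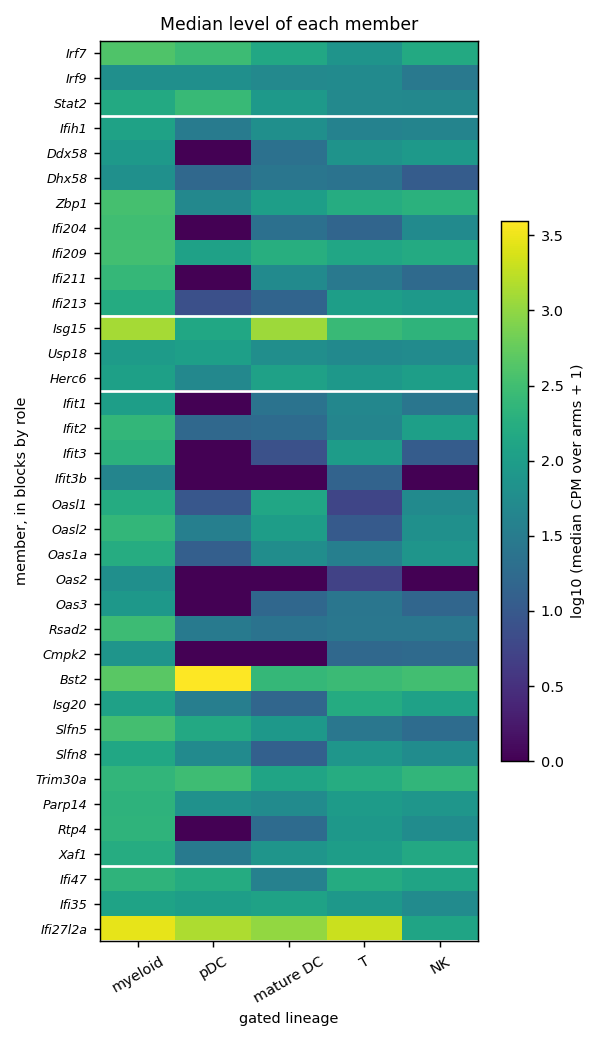
Median level of each member (rows, in blocks of transcription factors, sensors, the ISG15 system, effectors and others) in each lineage (columns), as log10 of the median CPM over arms with at least 5 cells plus 1. The myeloid column is bright in nearly every row, and the brightest cell is Bst2 in pDCs.

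The lineages were compared in 1 model over 38 sums of UMIs per arm and lineage, with the arm as a block, by the quasi-likelihood test of edgeR with Benjamini-Hochberg adjustment over the 5285 genes tested. Sums of fewer than 5 cells, those of NK cells in the long isotype arm and of pDCs in the long anti–PD-1/anti-MIF arm, were left out. All 36 members passed the filter on low counts. With the arm as a block, the adjusted p-values rest on how far the differences between lineages varied from arm to arm. The filter keeps a gene with enough UMIs in any lineage, so a member with few UMIs outside myeloid cells, such as Oas2, passed through the myeloid sums and had to differ. The counts of lower members are therefore descriptions beside the shares of all genes. For members with few UMIs in the lower lineage, fold changes and adjusted p-values are likewise descriptions and carry no conclusion.

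pDCs had lower levels of most sensors and effectors than myeloid cells and higher levels of Bst2 and Stat2. In all, 29 of 36 members were lower and 2 were higher in pDCs, while 27.9% and 21.5% of all genes tested were. The median log2 fold change was -2.34 over the members and -0.11 over all genes. All 8 sensors and 17 of 19 effectors were lower, whereas of the 3 transcription factors Stat2 was higher and neither of the others was called.

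Bst2 encodes tetherin, which holds budding virions at the cell surface and is known as a surface antigen of mouse pDCs. It had 3876, 3976 and 3991 CPM in the pDCs of the long isotype, anti–PD-1 and anti-MIF arms and 3758, 3383, 3947 and 3975 in the 4 short arms, against 380 to 676 CPM in myeloid cells. Every pDC arm thus lay above every myeloid arm, and the log2 fold change was 2.69 ± 0.17 (SE; edgeR adjusted p = 2.73e-17). Stat2, a transcription factor of the interferon response, had 188 to 308 CPM in pDCs and 92.0 to 184 in myeloid cells, with a log2 fold change of 0.57 ± 0.22 (edgeR adjusted p = 0.0308), a call kept in 16 of 22 alternatives and lost, for one, without the long anti-MIF arm. Irf7, the master regulator of interferon alpha genes, had a median of 292 CPM in pDCs (180 to 593) and 407 in myeloid cells (234 to 925), and its log2 fold change of -0.57 ± 0.27 did not pass (edgeR adjusted p = 0.0722).

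The effector and sensor genes that fell furthest in pDCs were close to absent there. Ddx58, which encodes the RNA sensor RIG-I, and Oas2, which makes the activator of RNase L, had 0 UMIs in the pDCs of all 8 arms, while myeloid cells had 78.1 and 53.5 CPM. With a floor of 3 UMIs over all pDCs, that is 4.70 CPM, they were at least 16.6-fold and at least 11.4-fold higher in myeloid cells. Rtp4, a receptor transporter gene with antiviral activity, had 1 UMI in pDCs against 4321 UMIs (213 CPM) in myeloid cells, a ratio of 136 with an exact 95% counting interval of 24.4 to 5365. Cmpk2, a mitochondrial nucleotide kinase gene next to Rsad2, had 2 UMIs in pDCs, and the myeloid level was between 6.90-fold and 206-fold theirs by the same interval. Free RNA was not subtracted, and its part in these levels was not tested.

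Ifit3, whose family binds foreign RNA, had 4 UMIs in pDCs and a log2 fold change of -5.36 ± 0.61. Ifi204, a DNA sensor gene, had 8 UMIs in pDCs against 192 to 406 CPM in myeloid cells (log2 fold change -4.81 ± 0.48). Usp18, Trim30a, Ifi35 and Irf9 were not called, with log2 fold changes of -0.47, 0.13, -0.32 and -0.09.

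Mature DCs fell below myeloid cells in 31 of 36 members and exceeded them in none, against 36.1% and 23.8% of all genes. The median log2 fold change was -1.76 over the members and -0.23 over all genes. The 5 that were not called were Isg15 (-0.29 ± 0.34), Oasl1 (-0.17 ± 0.25), Herc6 (0.32 ± 0.26), Ifi35 (-0.10 ± 0.23) and Irf9 (-0.30 ± 0.21). Herc6 encodes the ligase that attaches ISG15 in the mouse, so both the modifier and its ligase were among the members whose difference did not pass, and Usp18, which removes the modifier, was lower (-0.85 ± 0.35, edgeR adjusted p = 0.0325), a call kept in 3 of the 8 fits that left out 1 arm.

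The members with the largest differences in mature DCs were effectors, together with the sensor gene Ifi204. Cmpk2, Oas2 and Ifit3b had 2, 2 and 3 UMIs in mature DCs, and the myeloid level was 51.4-fold (14.2 to 424), 35.1-fold (9.68 to 290) and 18.0-fold (6.13 to 87.3) theirs by exact counting intervals. Ifit3 had 12 UMIs and a log2 fold change of -4.78 ± 0.48. Slfn8 had 0 to 22.3 CPM against 79.4 to 180 in myeloid cells (-4.01 ± 0.43). Ifi204 had 10.6 to 37.1 CPM in mature DCs (-3.96 ± 0.37). For these genes the arms of the 2 lineages did not overlap.

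T cells fell below myeloid cells in 33 of 36 members, against 34.3% of all genes, and rose above them in none, against 30.7%. The median log2 fold change was -1.55 over the members and -0.04 over all genes. The 6 members with the largest differences were 3 of the oligoadenylate synthetase family, the PYHIN sensors Ifi204 and Ifi211, and Slfn5. Oasl1 had 0 to 18.3 CPM in T cells and 101 to 252 in myeloid cells (-4.77 ± 0.36). Oasl2 had 0 to 54.8 against 150 to 292 (-4.44 ± 0.40). Oas2 had 11 UMIs in all T cells against 1085 in myeloid cells.

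Ifi204 had 0 to 30.4 CPM in T cells (-4.63 ± 0.31) and Ifi211 4.56 to 73.0, against 159 to 374 in myeloid cells (-3.48 ± 0.32). Slfn5 had 3.82 to 73.0 CPM in T cells and 181 to 496 in myeloid cells (-3.68 ± 0.33). In each of these members the T cell arms lay below all myeloid arms. By contrast Ifi27l2a differed little (-0.57 ± 0.22, edgeR adjusted p = 0.0203, lost in 4 of the 8 fits that left out 1 arm), and Isg20, an RNA exonuclease gene, had 128 to 222 CPM in T cells and 62.3 to 216 in myeloid cells, a difference of 0.37 ± 0.20 that did not pass (edgeR adjusted p = 0.0996). Ddx58 and Herc6 were not called either, with -0.35 and -0.47.

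NK cells fell below myeloid cells in 31 of 36 members, against 30.0% of all genes, and rose in none, against 22.5%. The median log2 fold change was -1.98 over the members and -0.07 over all genes. Ifit3b had 1 UMI and Oas2 2 UMIs in all NK cells, and the myeloid level was 38.2-fold (6.84 to 1511) and 24.8-fold (6.86 to 205) theirs. Rsad2, the gene of the antiviral radical enzyme viperin, had 0 to 124 CPM in NK cells against 182 to 621 (-4.21 ± 0.64). Ifi27l2a had 0 to 797 CPM in NK cells against 1688 to 3204 (-4.20 ± 0.31, edgeR adjusted p = 8.23e-16).

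Ifi211 and Slfn5 had log2 fold changes of -4.04 ± 0.50 and -3.79 ± 0.47 in NK cells. Ddx58 (0.11), Herc6 (-0.77), Usp18 (-0.39), Isg20 (-0.21) and Trim30a (-0.31) were not called in NK cells. The RNA sensor gene Ddx58 was thus 0 UMIs in pDCs and had 54.1 to 315 CPM in NK cells, 57.3 to 97.2 in T cells and 61.4 to 111 in myeloid cells, with overlapping arms in these 3.

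**Figure D3:**
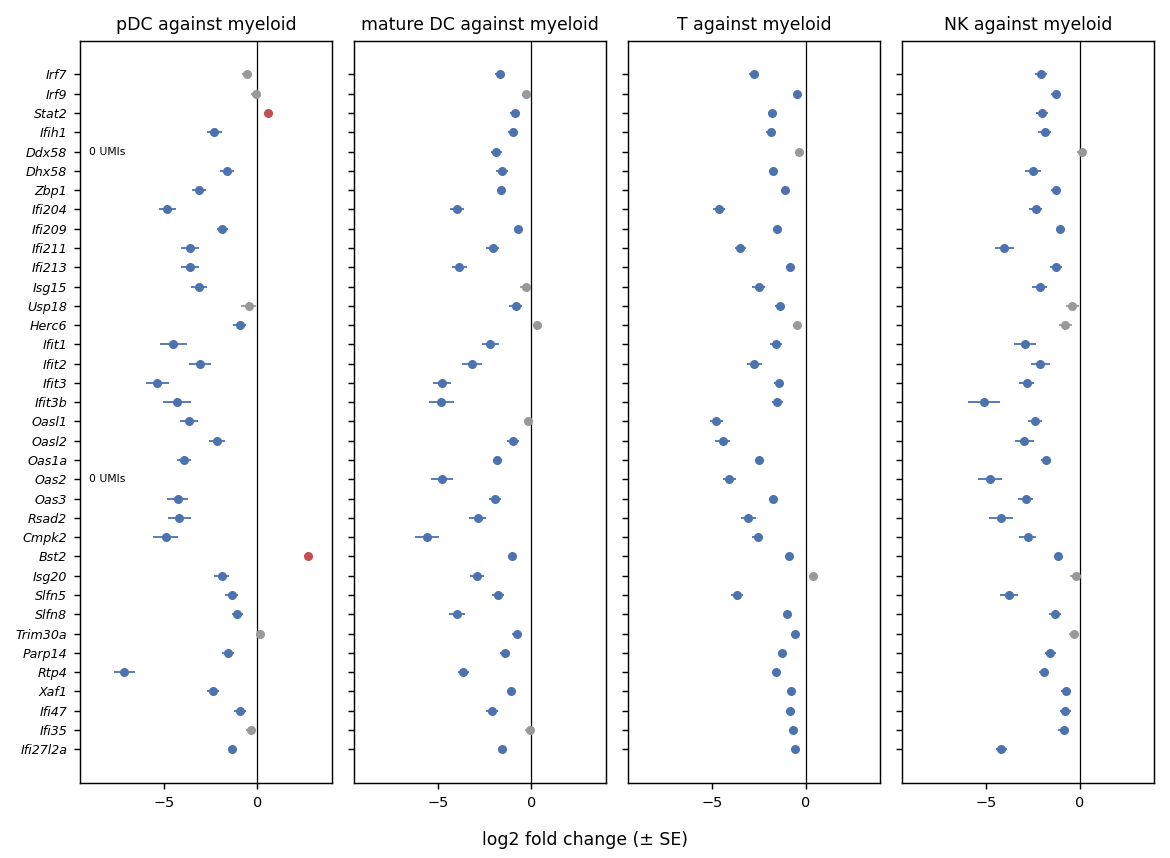
Log2 fold change of each member (rows) against myeloid cells in pDCs, mature DCs, T cells and NK cells, with the SE as bars. Blue points are lower and red points higher at an adjusted p under 0.05, grey points did not pass, and members without a UMI in pDCs are marked "0 UMIs". Bst2 and Stat2 in pDCs are the only red points.

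The 2 lymphoid lineages differed from each other in few members, at shares near those of all genes. NK cells were higher than T cells in Oasl1 and Ifi204 and lower in Ifi27l2a, Ifit3b and Ifit3, that is 2 and 3 of 36 members, against 5.47% and 6.51% of all genes. Oasl1 had 10.8 to 99.6 CPM in NK cells and 0 to 18.3 in T cells (2.39 ± 0.62, edgeR adjusted p = 0.00534), and Ifi204 had 13.7 to 224 against 0 to 30.4 (2.29 ± 0.50, edgeR adjusted p = 7.71e-04). Their arms overlapped. Ifi27l2a fell by 3.63 ± 0.30 log2 units in NK cells (edgeR adjusted p = 8.15e-13), and all NK arms lay below all T cell arms. Ifit3b had 1 UMI in NK cells against 73 in T cells, a ratio of 22.6 (3.93 to 904), and Ifit3 had 0 to 199 CPM against 50.4 to 164 (-1.40 ± 0.48, edgeR adjusted p = 0.0477). Ifit3 kept its call in 2 of the 8 fits that left out 1 arm, those without the long anti–PD-1 or the long anti–PD-1/anti-MIF arm, and Ifit3b was tested in 3 of them and kept its call in each.

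The dendritic cell lineages differed in both directions, and the members differed about as often as all genes did. By edgeR, 55.6% of members and 57.2% of all genes had an unadjusted p under 0.05. In pDCs, 6 of 36 members were higher than in mature DCs and 12 were lower, against 28.2% and 24.7% of all genes. The 6 were Bst2, Slfn8, Stat2, Ifi47, Irf7 and Trim30a. Bst2 had 162 to 313 CPM in mature DCs (3.76 ± 0.20, edgeR adjusted p = 8.32e-20), Slfn8 had 29.2 to 122 CPM in pDCs and 0 to 22.3 in mature DCs (2.94 ± 0.58, edgeR adjusted p = 2.95e-05), and Irf7 was higher by 1.13 ± 0.32. Stat2 was higher by 1.46 ± 0.29, so that 2 of the 3 transcription factors were above the mature DC level.

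Isg15 fell the other way, with a median of 137 CPM in pDCs against 1183 in mature DCs (-2.84 ± 0.46, edgeR adjusted p = 1.09e-06), and no pDC arm reached the lowest mature DC arm. Oasl1, which binds the messenger RNA of Irf7 and limits its translation, had 0 to 46.7 CPM in pDCs and 30.4 to 386 in mature DCs (-3.49 ± 0.53, edgeR adjusted p = 3.61e-07). Ddx58 was at least 4.54-fold higher in mature DCs, and Rtp4 10.7-fold (1.73 to 441) higher by its counts of 1 and 22 UMIs. Of the sensors 5 of 8 were lower in pDCs and none was higher. Among these, Ifi211 lost its call in 5 and Ifih1 in 2 of the 8 fits that left out 1 arm.

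The interferons themselves were nearly undetected. Of 20 type I and III interferon genes with a row, 2 had any UMI, Ifnb1 with 8 and Ifnk with 3, among 34482760 UMIs in kept cells. All 20 were at 0 in pDCs, which allows up to 4.70 CPM for each. Interferon gamma, which acts through its own receptor and also induces many members, was found in lymphocytes. Ifng had 308, 459, 248 and 822 CPM in T cells of the 4 long arms and 103, 281, 155 and 72.9 CPM in those of the short arms, and 6 UMIs in all myeloid cells.

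A list of 42 further pathway genes (ligands, receptors and kinases, transcription factors, sensing genes, brakes and interferon gamma targets) was followed beside the members, and 31 of them passed the filter in the lineage model. Against myeloid cells 7 were higher and 15 lower in pDCs, 9 and 15 in mature DCs, 4 and 20 in T cells and 5 and 19 in NK cells. The shares of all genes are those given above for each lineage, and in pDCs the 7 higher genes of 31 were near the 21.5% of all genes. They were the receptor genes Ifnar1 (1.53 ± 0.20) and Ifnar2 (1.06 ± 0.18), the endosomal sensors Tlr7 (1.66 ± 0.28) and Tlr9 (1.12 ± 0.35), their chaperone Unc93b1 (0.65 ± 0.18), the adaptor STING gene Tmem173 (0.55 ± 0.23) and the lineage factor Irf8 (3.23 ± 0.18). Of 10 targets of interferon gamma tested, 7 were lower and 0 higher in pDCs (27.9% and 21.5% of all genes), with Gbp3 at -4.46 ± 0.43 and Gbp5 at -3.74 ± 0.59, and Ifngr1, its receptor, at -3.01 ± 0.33.

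Treatment arms were compared within myeloid cells, where all 36 members passed the filter among 9357 genes. The first question was the direction of the members in each arm relative to the isotype arm of its cohort, which has no test because each arm is 1 sample. In the short cohort all 36 members were above isotype under anti–PD-1, 33 under anti-MIF and 35 under both antibodies, with median log2 ratios of 0.75, 0.41 and 0.67. In the long cohort 24 were above isotype with anti–PD-1, and 35 were below it with anti-MIF and 35 with both, with median log2 ratios of 0.18, -0.84 and -0.76. Over all genes these medians lay between -0.02 and 0.11.

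Put as groups that do not overlap, both long arms with anti-MIF were below both long arms without it for 35 of 36 members, all but Bst2, against 18.4% of all genes. In the short cohort both arms with anti–PD-1 were above both arms without it for 32 of 36 members, against 17.3% of all genes, and the others were Irf9, Ifit1, Ifit3b and Oas2. Anti–PD-1 in the long cohort gave 0 such members in either direction (8.96% of all genes were higher and 16.0% lower), and anti-MIF in the short cohort gave 1 higher, Ifit3b (24.2% of all genes), and 1 lower, Irf9 (12.1%). The 36 members share the same 4 arms and so are not independent of each other.

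Isg15 had 1749, 1880, 801 and 1004 CPM in the long isotype, anti–PD-1, anti-MIF and combination arms and 741, 1850, 1047 and 1574 in the short arms. Ifit1, which binds viral RNA that lacks a host-like cap, had 259, 327, 71.1 and 56.8 CPM in the long arms and 66.9, 108, 106 and 103 in the short arms. Rsad2 had 547, 621, 182 and 198 CPM in the long arms and 282, 378, 255 and 297 in the short arms. For all 3 the long arms fell into a high pair without and a low pair with anti-MIF, while the short isotype arm was low in Isg15 and Ifit1.

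Zbp1 had 417, 391, 232 and 225 CPM in the long arms and 183, 462, 298 and 452 in the short arms. Ifi27l2a had 3181, 3138, 1688 and 2555 CPM in the long arms and 2131, 3023, 2843 and 3204 in the short arms. Stat2 had 180, 183, 96.8 and 92.0 CPM in the long arms and 102, 184, 136 and 163 in the short arms. Trim30a had 216, 254, 143 and 183 CPM in the long arms and 203, 324, 248 and 305 in the short arms, and Slfn5 had 496, 384, 181 and 254 and then 267, 474, 279 and 375. The order of the arms was the same kind of order as for Isg15 in each, with both long anti-MIF arms lowest in their cohort and both short anti–PD-1 arms highest in theirs.

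Ifi209 had 432, 418, 202 and 293 CPM in the long arms and 238, 402, 283 and 353 in the short arms, and Ifi47 had 313, 290, 195 and 176 and then 117, 345, 139 and 236. Bst2 stood apart with 426, 676, 578 and 479 CPM in the long arms and 380, 457, 400 and 493 in the short arms. Its long anti-MIF arms lay between the isotype and the anti–PD-1 arm.

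**Figure D4:**
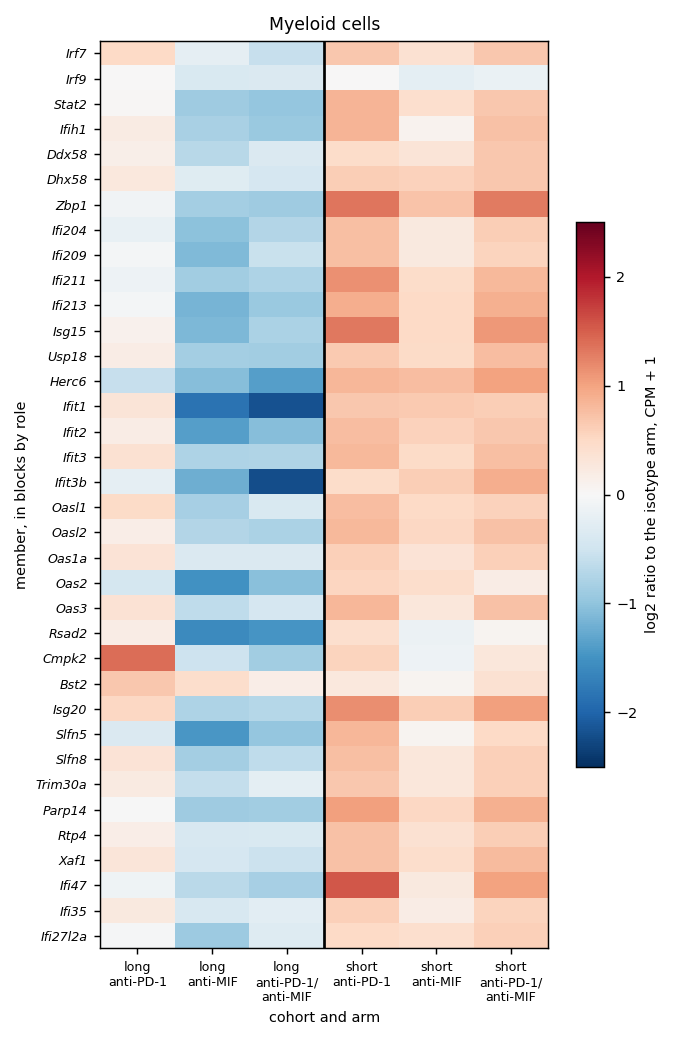
Log2 ratio of each member (rows) to the isotype arm of its cohort in myeloid cells, computed on CPM plus 1, for the treated arms of both cohorts (columns). Blue is below and red above isotype. The columns of long anti-MIF and long anti–PD-1/anti-MIF are blue in every row but Bst2, and the 3 short columns are mostly red.

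The tests over arms, in which the 8 arms stand in for replicates, called none of the 36 members for either antibody. For anti–PD-1 over both cohorts edgeR called 0 of 9357 genes (0%), as it did for anti-MIF (0%). The median log2 fold change of the members was 0.35 for anti–PD-1, with 35 of 36 above 0, and -0.40 for anti-MIF, with 36 of 36 below 0, against -0.01 and 0.01 over all genes. At an unadjusted p under 0.05 there were 6 of 36 members (16.7%) for each antibody, against 4.15% and 5.57% of all genes, and DESeq2 called 0 members for both. The smallest adjusted p of a member was 0.858 for anti-MIF and higher for anti–PD-1.

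Whether an antibody acted differently in the 2 cohorts was tested as an interaction, with 2 residual degrees of freedom. For anti-MIF the interaction (long minus short) was below 0 for 36 of 36 members with a median of -0.94, against 0.00 over all genes, and 31 members (86.1%) had an unadjusted p under 0.05 against 9.20% of all genes. After adjustment edgeR called 0 members and 0 genes (0%), the smallest adjusted p being 0.178 for Ifit1 (-2.45 ± 0.33). DESeq2 called 4 members, Ifit1, Ifit2, Ifit3b and Rsad2, and 21 of the 3371 genes to which it gave an adjusted p (0.623%). In fits with 1 residual degree of freedom, edgeR called 17, 21, 15 and 21 members without the long isotype, anti–PD-1, anti-MIF or combination arm, against 2.63%, 4.96%, 2.14% and 4.88% of all genes, and 0 members without any 1 arm of the short cohort. For anti–PD-1 the interaction had a median of -0.32, with 0 members called by edgeR or DESeq2 (0% of all genes by edgeR) and 6 members (16.7%) at an unadjusted p under 0.05, against 4.72% of all genes.

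Between the cohorts, 1 of 36 members was called in myeloid cells, against 1.64% of all genes higher and 1.97% lower in the long cohort. Irf7 had 657, 925, 560 and 437 CPM in the long arms and 234, 376, 306 and 376 in the short arms, so that every long arm lay above every short arm, with a log2 fold change of 0.99 ± 0.20 (edgeR adjusted p = 0.0385). The call held in 2 of the 8 fits that left out 1 arm, those without the long isotype or the long anti–PD-1/anti-MIF arm.

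The composition of the myeloid gate moved with the same arms. Cells with at least 2 UMIs of C1qa, C1qb and C1qc, complement genes of macrophages, made up 18.3% and 31.0% of the gate in the long isotype and anti–PD-1 arms and 60.9% and 42.0% in the long anti-MIF and combination arms, and 25.9%, 19.2%, 21.8% and 16.3% in the short arms. The summed CPM of 4 monocyte genes (Ly6c2, Plac8, Ccr2 and Chil3) was 7330, 6437, 2503 and 4475 in the long arms and 5294, 7675, 6764 and 7472 in the short arms. The 4 neutrophil markers summed to 7940 CPM in the long anti–PD-1/anti-MIF arm and to 102 to 1139 CPM in the other labelled arms. The median myeloid cell held 11649 UMIs in the long anti-MIF arm against 8350 in the long isotype arm, and the part of composition and depth in the member levels was not tested.

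The members were therefore also summed within subsets of the gate, a split chosen after the data were seen. C1q-positive cells numbered 13, 27, 259 and 50 in the long arms and 119, 150, 71 and 40 in the short arms. In C1q-positive cells the sum was 9196, 10949, 5836 and 6937 CPM in the long arms and 5081, 10957, 7663 and 11275 in the short arms. In Ly6c2-positive cells without a C1q UMI it was 16300, 17802, 13407 and 10915 CPM in the long arms and 8922, 13274, 11200 and 12218 in the short arms. Both long arms with anti-MIF were thus lower, and both short arms with anti–PD-1 higher, than the others within either subset. Single members followed in part, with 26 of 36 lower with anti-MIF in the long cohort in C1q-positive cells (15.8% of all genes) and 26 of 36 in Ly6c2-positive cells (15.5%), and with 33 of 36 (17.2%) and 21 of 36 (16.0%) higher with anti–PD-1 in the short cohort.

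**Figure D5:**
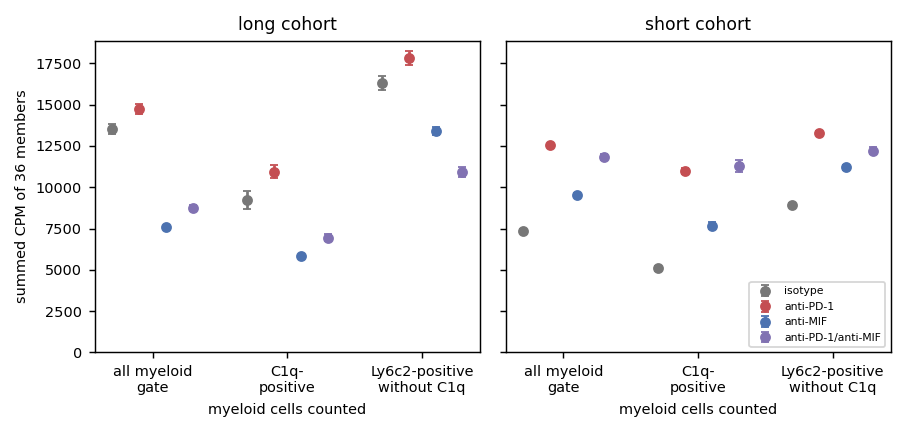
Summed CPM of the 36 members (y axis) per arm in all myeloid cells, in C1q-positive cells and in Ly6c2-positive cells without C1q (x axis), for both cohorts, in the same arm colours (grey isotype, red anti–PD-1, blue anti-MIF, purple combination), with exact Poisson 95% intervals as bars. In the long cohort both anti-MIF arms lie below the others in each set of cells, between 5836 and 6937 CPM in C1q-positive cells.

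Other interferon genes were counted over the same myeloid arms. Of 34 pathway genes tested, 17 were lower and 1, Ifngr1, was higher in both long arms with anti-MIF (18.4% and 23.5% of all genes). In both short arms with anti–PD-1, 25 were higher and 2, Ifngr1 and Tlr7, lower (17.3% and 21.4% of all genes). Of 11 targets of interferon gamma, 7 were lower with anti-MIF in the long cohort and 10 higher with anti–PD-1 in the short cohort. Cxcl10, a chemokine gene induced by both kinds of interferon, had 1909, 1766, 671 and 382 CPM in the long arms and 660, 1679, 652 and 917 in the short arms. The brake gene Socs1 was among the genes lower with anti-MIF and among those higher with anti–PD-1. Ifnar1 and Ifnar2, the receptor genes, were higher with anti–PD-1 in the short cohort and were not among the 17.

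In T cells 29 members passed the filter among 5561 genes, and edgeR called none of them for anti–PD-1, anti-MIF, either interaction (0% of all genes each) or the cohort (3.22% of all genes higher and 3.58% lower in the long cohort). DESeq2 called 0 members in these 5 comparisons, and 5, 3, 4, 7 and 8 members (17.2%, 10.3%, 13.8%, 24.1% and 27.6%) had an unadjusted p under 0.05, in the order of anti–PD-1, anti-MIF, their interactions and the cohort. Of all genes 3.97%, 4.39%, 4.35%, 6.80% and 24.7% did. The median log2 fold change was -0.02 for anti–PD-1 and 0.06 for anti-MIF, with a median SE of 0.25 for both. For their interactions (long minus short) it was 0.04 and 0.47, with 15 and 25 of 29 members above 0 and median SEs of 0.49 and 0.50. The smallest adjusted p for the interaction of anti-MIF was 0.120, in Rsad2. Rsad2 had 335 CPM in the short isotype arm against 6.07 to 42.9 in the other T cell arms, and 54 of its 55 UMIs there sat in 1 cell.

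In mature DCs 17 members passed the filter among 1862 genes and none was called by edgeR or DESeq2. For anti–PD-1 their median log2 fold change was 0.44, with 16 of 17 above 0 and 3 members (17.6%) at an unadjusted p under 0.05, against 5.32% of all genes. After adjustment edgeR called 0.376% of all genes for anti–PD-1. Among these was the pathway gene Cxcl9, a chemokine that draws T cells, at 185, 50.7, 123 and 205 CPM in the 4 arms with anti–PD-1 and 22.4, 3.04, 6.04 and 0 in those without (4.29 ± 0.74, edgeR adjusted p = 0.0226). The arms with anti–PD-1 held 14, 9, 8 and 9 cells. Each value without it lies below the floor of 3 UMIs in its arm (33.5, 4.55, 18.1 and 66.9 CPM). The Cxcl9 difference thus rests on few UMIs, and the part of single cells in it was not tested. For anti-MIF the median was -0.24, with 3 members (17.6%) at an unadjusted p under 0.05, against 2.85% of all genes, and 0% of all genes called after adjustment. The interactions with anti–PD-1 and anti-MIF had 0 and 3 members under that unadjusted p (0% and 17.6%, against 2.63% and 3.33% of all genes), and the cohort 1 member (5.88%, against 14.5% of all genes). For these interactions the median log2 fold changes were 0.14 and -0.99, with 10 and 4 of 17 members above 0. After adjustment 0% of all genes were called for each interaction, and 0.269% higher and 0.107% lower in the long cohort. NK cells and pDCs had arms with fewer than 5 cells and were not tested for treatment.

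Within a lineage the members were spread unevenly over cells. In cells thinned to 2000 UMIs, which left out shallower cells, the median myeloid cell held 12 member UMIs in the long and 17 in the short cohort, and the median pDC 14 and 13. The median T cell held 6 in both cohorts, the median mature DC 4 in both, and the median NK cell 5 and 2. In the long cohort the top 10% of cells held 40.6% of the member UMIs of T cells, 36.4% of those of myeloid cells and 17.3% of those of pDCs. Of the thinned T cells, 16 of 239 from long arms (6.69%) and 13 of 262 from short arms (4.96%) held no member UMI. Before thinning these T cell shares were 0.755% and 2.31%.

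Each member was also set against the sum of the others, over the myeloid arms and over all lineages. Over the 8 myeloid arms, which share 2 libraries, Spearman's rho of a member with the sum of the others had a median of 0.87, with 34 of 36 above 0.5, from 0.36 in Bst2 to 1.00 in Isg20. Over the 38 sums of all lineages, which differ in cell number and depth, the median rho was 0.41, with 11 of 36 above 0.5, and Isg20 had the lowest value (0.02) and Slfn5 the highest (0.85). Isg20 thus followed the other members from arm to arm in myeloid cells but not from lineage to lineage. No value over all genes stands beside these, and the difference between the medians was not tested.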

How the data were processed

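Both cohorts were processed per the labels with Cell Ranger 7.1.0 on mm10, and Seurat 5.1.0 and DESeq2 are named in the submitters' notes. The authors deposited raw UMI counts of genes and of hashtags per cell barcode, an annotation of cells was not used here, and no value was read from columns of unlabelled samples (0 such columns). Here, hashtags were assigned with HTODemux (Seurat 5.3.0, quantile 0.99), hashtag doublets and negatives were removed, and cells with 200 to 5000 genes and at most 5% mitochondrial UMIs were kept. Doublets within an arm were not removed and free RNA was not subtracted. Counts were summed per lineage and arm. edgeR 4.0.16 (TMM, filterByExpr, quasi-likelihood test, Benjamini-Hochberg adjustment, threshold 0.05) compared lineages with arm as a block over sums of at least 5 cells, and, within myeloid cells, T cells and mature DCs, arms by cohort, anti–PD-1 and anti-MIF. The interactions were fitted as terms of cohort by antibody. DESeq2 1.42.0, other gates, filters, hashtag calls, thinning to 2000 UMIs and leaving out each arm were alternatives. Scripts were tested on simulated data.

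The precision is set by the summed UMIs, and exact Poisson 95% intervals and the floor of 3 counts cover counting error only. Each arm is 1 hashtagged sample of a pooled library. The p-values therefore rest on the spread between arms that the terms of each model leave, which may be technical. One more hashtag per cohort, anti-PD1-MIF-DDT in the feature lists, is not in the sample labels and entered no comparison. The members and lists were chosen with earlier results of these data known. Genes are named by 2 rules: the 10 members with the highest mean CPM over the 5 lineages, and up to 6 members per comparison with the largest log2 fold change among those called. Other members are named where they are exceptions to a count, chosen after their values were seen. Gene positions are those of GENCODE vM21 and promoter sequences those of RefSeq (GRCm38.p6). Mx1, Mx2 and Mb21d1 were not analysed here.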

Additional observations from a re-analysis of the deposited data

Results flagged for a closer look

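In 55 groups of 4 to 10 arms that were checked for an arm far from the others, 4 had one, and chance alone gives about 1 in 20. The summed members of T cells in the short isotype arm were 6185 CPM, against 4011 to 4956 in the other labelled arms. That arm had 35 cells, 1 of which held 23.1% of its 1016 member UMIs, and the sum was 4952 CPM without this cell and 3838 without the top 3 cells. Treated in the same way, the other labelled T cell arms had 3782 to 4609 CPM without their top cell. Without their top 3 cells they had 3086 to 4362 CPM. In the short isotype arm the 6 myeloid markers summed to 128 CPM against 10.4 to 72.6 in the other labelled T cell arms.

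Ifi27l2a in NK cells had 797 CPM in the short anti–PD-1/anti-MIF arm, an arm of 8 cells, against 0 to 266 in the other labelled arms. Among labelled arms with at least 5 cells, Bst2 in pDCs was lowest in the short anti–PD-1 arm at 3383 CPM, with 6 cells, and it was 2843 CPM in the 4 cells of the long combination arm. Among the same arms, Slfn5 in pDCs was highest in the short anti-MIF arm at 409 CPM, with 14 UMIs in 8 cells.

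The fifth hashtag, which the feature lists name anti-PD1-MIF-DDT and the sample labels do not list, marked 322 cells of the long and 993 of the short one. Its T cells of the long cohort had a member sum of 13527 CPM, from 24 cells, above every labelled T cell arm. One of these cells held 763 of 2012 member UMIs (37.9%), and the sum was 9038 CPM without it and 5743 without the top 3 cells. Rsad2 had 1035 CPM there, with 89 of its 154 UMIs in 1 cell, and the 6 myeloid markers summed to 854 CPM. Its 202 myeloid cells had 18453 CPM in the long cohort, above the 14732 of the highest labelled arm, with 14804 CPM in C1q-positive and 20939 in Ly6c2-positive cells. In the short cohort the fifth hashtag had 10306 CPM in myeloid and 4944 CPM in T cells, within the range of the labelled arms.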

How the results depend on the processing

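Members called are counted here in both directions. Against myeloid cells, 31 were called in pDCs, 31 in mature DCs, 33 in T cells and 31 in NK cells, and leaving out 1 arm at a time gave 26 to 32, 27 to 31, 27 to 33 and 25 to 32. For NK against T cells (5) it gave 3 to 6, and for pDCs against mature DCs (18) it gave 13 to 20. With cells thinned to 2000 UMIs these 6 counts were 16, 14, 16, 17, 3 and 6, since 18 of the 36 members passed the filter then. NK against myeloid gave 19 in the long cohort alone. NK against T gave 3 without the arm block, 2 with at least 10 cells per sum and 3 with cells of several gates kept. pDCs against mature DCs gave 10 in the short cohort alone.

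In myeloid cells the cohort comparison (1 member) gave 2 thinned (Irf7 and Ifit3), 2 with MULTIseqDemux, 5 without a filter on low counts, 0 in C1q-positive cells, 4 in Ly6c2-positive cells and 0 to 2 with 1 arm left out. Without that filter anti-MIF gave 2 and the cohort differences of anti–PD-1 and anti-MIF 2 and 12. The cohort difference of anti-MIF (0 members) gave 4 with DESeq2, 2 in C1q-positive cells (Irf7 and Slfn5) and 0 to 21 with 1 arm left out, and that of anti–PD-1 gave 0 to 3. In T cells, without the filter, the cohort comparison gave 1, anti–PD-1 2, anti-MIF 1 and the cohort difference of anti-MIF 1. With 1 T cell arm left out the cohort comparison gave 0 to 1, the cohort difference of anti–PD-1 0 to 2 and that of anti-MIF 1 (Rsad2 or Irf7). The other treatment counts stayed at 0 with 1 arm left out. The cause of these changes was not tested. The C1q and Ly6c2 subsets, and T cells without the top cell of each arm (median sum 4443 CPM), were chosen after seeing the data. Without Ifi27l2a the median sums were 2765 CPM in T cells, 6238 in pDCs (Bst2 included) and 7659 in myeloid cells. Of 723 alternatives for 36 results on named genes, 694 kept direction and call, 29 lost the call and 0 reversed. These 36 were picked as the largest called differences, so their calls were likely to hold, and fits that did not test a gene were not counted. Other calls against myeloid cells varied. Usp18 in mature DCs held in 8 of 21 alternatives and Ifi27l2a in T cells in 12 of 22, but Rtp4 in T cells in 22 of 22. The lineages were paired by arm in every lineage fit but the one without the arm block. The fits across arms hold cohort and both antibodies as terms, so arms of the same treatment are matched between cohorts. The labels give no replicate numbers to pair by.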
